A study of Mus musculus with 12 samples.

Results

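The 10 genes described here encode enzymes and a transporter with which male germ cells take up and burn sugar, and the forms of the same enzymes that other cells use. They were Pgk2 and Pgk1 (phosphoglycerate kinase), Ldhc, Ldha and Ldhb (lactate dehydrogenase), Pdha2 and Pdha1 (the E1 alpha subunit of the pyruvate dehydrogenase complex), Gapdhs (the sperm form of glyceraldehyde-3-phosphate dehydrogenase), Hk1 (hexokinase 1) and Slc2a3 (a glucose transporter). The genes were chosen with earlier results of these data known. The members were all probesets that the platform annotation pairs with exactly 1 of these genes, a rule that did not itself use the measured values. This rule gave 21 of the 45037 probesets tested, of which 19 had a mean above the background level of 5.71, a level that 95% of 49 probesets for organ-specific genes not used in the testis did not exceed. The 2 probesets below it were both of Pdha1.

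The arrays measured RNA of testicular cells sorted by fluorescence from adult males, 8 to 10 weeks old by the labels, of the inbred strains PWD/Ph (PWD, derived from wild Mus m. musculus) and C57BL/6J (B6, mainly of Mus m. domesticus origin). From each strain came prepachytene spermatocytes (leptotene, zygotene and early pachytene cells in the methods), pachytene spermatocytes (mid to late pachytene and diplotene cells) and spermatids, with 2 arrays for each of the 6 groups and no treatment or engineered allele. The paper states that RNA expression was studied in several biological replicates per genotype, without naming these arrays. The labels do not say whether the 2 arrays of a group came from different animals, so that p-values measure the spread between these arrays, which may be technical. Each array was made from 15 to 40 ng of total RNA by a 2-cycle amplification on an Affymetrix whole-genome mouse GeneChip, and values are log2 GCRMA signals.

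Glycolysis splits glucose to pyruvate, which lactate dehydrogenase interconverts with lactate and which the pyruvate dehydrogenase complex feeds into the mitochondria. Germ cells carry their own isozymes for several of these steps. Pgk2 and Pdha2 are retrogenes, autosomal copies without introns of the X-linked genes Pgk1 and Pdha1, and the X chromosome is silenced in male germ cells during the pachytene stage. Spermatocytes in the testis are fed with lactate by Sertoli cells, whereas sperm rely strongly on glycolysis along the flagellum.

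The arrays of a group correlated across probesets with Pearson's r from 0.987 in PWD prepachytene to 0.996 in B6 pachytene, and the median of an array ranged from 3.16 to 3.27. All 14 prepachytene markers were lower in pachytene than in prepachytene arrays and 10 of 12 pachytene markers were higher. The paper's methods, which stained aliquots of the sorted cells with antibodies, report that most cells of each population were of the type sought. Markers of other cells were measured in the prepachytene arrays. Of 12 Sertoli cell markers, 7 were above background in prepachytene arrays of either strain (Clu at a mean of 13.22 in B6 and 14.30 in PWD), 3 to 4 in pachytene and 4 to 5 in spermatid arrays, whereas Sox9, Amh and Fshr were below background in every group. Of 15 spermatid markers, all were above background in every group, and 10 were lower in pachytene than in prepachytene arrays. In such bulk samples, fewer cells of a type and less RNA per cell cannot be told apart.

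**Figure D1:**
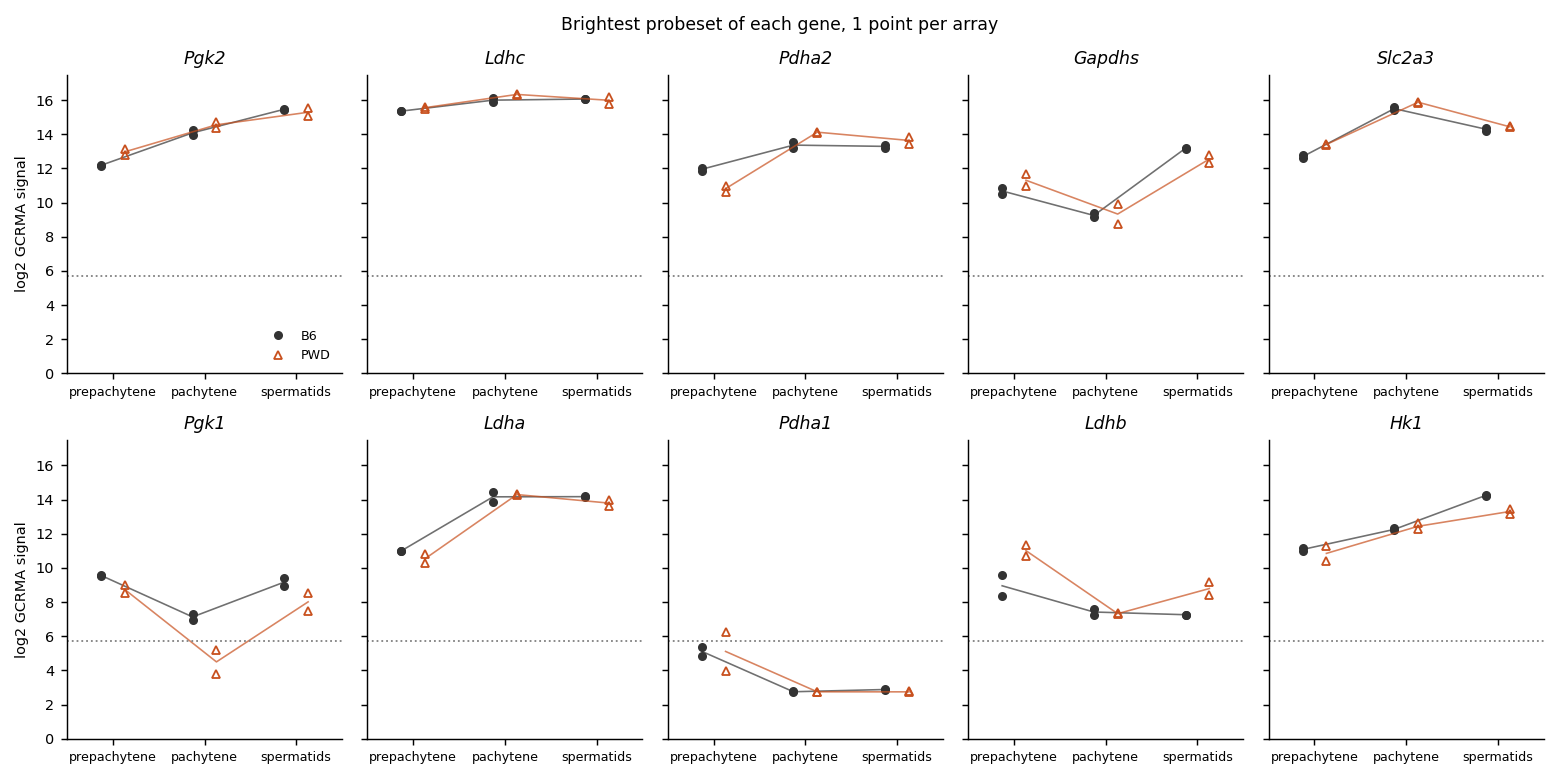
Log2 GCRMA signal of the brightest probeset of each gene on each of the 12 arrays (filled circles B6, open triangles PWD, lines join group means, dotted line the background level of 5.71). Pgk2, Pdha2, Ldha, Slc2a3 and Hk1 sat higher on every pachytene than on every prepachytene array, Pgk1 dipped in pachytene arrays and lowest in PWD, and Pdha1 lay at or near background throughout.

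The sequences before the start sites are shown because the germ and somatic forms of a pair moved differently between the populations. RefSeq (GRCm38.p6) held a promoter entry for 9 of the 10 genes and none for Slc2a3. The 250 bases before the first listed start are given below for 3 pairs, 5′ to 3′ on the gene's strand. Capitals mark the letters TGACG, TGACGTCA (the full cyclic AMP response element, which contains TGACG on both strands), GGGCGG (a GC box), CCAAT and TATAAA, each searched on both strands.
Pgk2, chr17:40208610-40208859, minus strand: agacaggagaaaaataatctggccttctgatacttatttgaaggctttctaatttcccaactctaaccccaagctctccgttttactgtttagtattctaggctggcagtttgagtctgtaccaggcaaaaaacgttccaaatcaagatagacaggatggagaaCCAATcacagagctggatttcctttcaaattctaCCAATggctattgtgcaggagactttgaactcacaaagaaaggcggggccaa
Pgk1, chrX:106186850-106187099, plus strand: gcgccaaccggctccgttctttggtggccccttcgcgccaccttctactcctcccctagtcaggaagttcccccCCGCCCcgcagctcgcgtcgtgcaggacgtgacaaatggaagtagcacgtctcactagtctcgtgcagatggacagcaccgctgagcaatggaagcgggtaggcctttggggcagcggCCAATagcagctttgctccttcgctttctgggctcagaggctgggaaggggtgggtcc
Ldhc, chr7:46861013-46861262, plus strand: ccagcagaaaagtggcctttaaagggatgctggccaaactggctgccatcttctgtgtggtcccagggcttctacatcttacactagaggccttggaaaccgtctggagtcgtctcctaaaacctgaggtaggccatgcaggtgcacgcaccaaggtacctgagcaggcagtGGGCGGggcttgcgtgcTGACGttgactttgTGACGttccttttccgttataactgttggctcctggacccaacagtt
Ldha, chr7:46845554-46845803, plus strand: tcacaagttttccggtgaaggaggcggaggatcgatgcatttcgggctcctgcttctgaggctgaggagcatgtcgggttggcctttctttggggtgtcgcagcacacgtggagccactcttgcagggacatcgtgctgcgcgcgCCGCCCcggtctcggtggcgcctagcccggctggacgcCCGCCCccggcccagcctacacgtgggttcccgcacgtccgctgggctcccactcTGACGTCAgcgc
Pdha2, chr3:141212356-141212605, minus strand: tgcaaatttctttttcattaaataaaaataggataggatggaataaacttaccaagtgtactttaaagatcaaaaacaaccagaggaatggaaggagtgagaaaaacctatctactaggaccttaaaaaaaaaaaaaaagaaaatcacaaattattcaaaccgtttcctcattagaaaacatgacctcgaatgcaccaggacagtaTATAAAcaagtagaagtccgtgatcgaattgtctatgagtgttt
Pdha1, chrX:160138431-160138680, minus strand: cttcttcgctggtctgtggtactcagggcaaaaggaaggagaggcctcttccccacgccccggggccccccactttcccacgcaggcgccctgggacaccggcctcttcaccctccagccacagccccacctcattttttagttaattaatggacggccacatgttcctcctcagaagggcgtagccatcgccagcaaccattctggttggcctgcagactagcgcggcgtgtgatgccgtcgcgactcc

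The windows of the somatic forms held more CpG dinucleotides, 17 for Pgk1, 25 for Ldha and 15 for Pdha1, against 3 for Pgk2, 8 for Ldhc and 4 for Pdha2 (median 6 over 32851 promoters). Ldha held the full TGACGTCA starting 12 bases before the start, found in 1.55% of all promoters, and Ldhc held TGACG at 61 and 47 bases, found in 17.8%. GGGCGG, present in 32.7% of promoters, was in the windows of Pgk1, Ldha and Ldhc, and CCAAT, present in 33.8%, was in those of Pgk2 (2 matches) and Pgk1. The Pdha2 window was the only one of the 6 with TATAAA (12.4% of promoters), 44 bases before the start, and no searched motif lay in the Pdha1 window. These are matches of letters only, and for Ldha and Ldhc they depend on the start taken. Before its second listed start, Ldha had 9 CpG dinucleotides, 1 TGACG and neither TGACGTCA nor GGGCGG. Ldhc had 3 CpG dinucleotides and no searched motif before its second. Ldha and Ldhc are neighbours on chromosome 7, with 5635 bases between the gene records, and the RefSeq record of Ldha begins upstream of the start shown.

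Pgk2, the phosphoglycerate kinase of the later germ cells, rose at each step. Its single probeset was at 12.15 and 12.22 on the B6 prepachytene arrays, 12.78 and 13.17 in PWD prepachytene, 14.24 and 13.94 in B6 pachytene, 14.72 and 14.39 in PWD pachytene, 15.50 and 15.43 in B6 spermatids and 15.05 and 15.53 in PWD spermatids. No pachytene array overlapped a prepachytene or spermatid array. Over both strains the rise was 3.35-fold into pachytene (log2 1.74, SE 0.14, adjusted p = 1.41e-05) and a further 2.08-fold into spermatids (log2 1.06, SE 0.14, adjusted p = 0.00054).

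Pgk1, the X-linked form of most cells, went the other way in pachytene and came back in spermatids. Its brightest probeset was at 9.58 and 9.55 in B6 prepachytene, 8.50 and 8.97 in PWD prepachytene, 7.29 and 6.98 in B6 pachytene, 5.19 and 3.81 in PWD pachytene, 8.96 and 9.38 in B6 spermatids and 7.48 and 8.55 in PWD spermatids. The PWD pachytene arrays alone lay below background, so that the depth of the fall in PWD has no measured floor. Over both strains, with those arrays included, the fall was 10.1-fold (log2 -3.34, SE 0.35, adjusted p = 6.24e-05) and the rise into spermatids 6.85-fold (log2 2.78, SE 0.35, adjusted p = 0.000337). In B6, above background in each population, the means were 9.57 in prepachytene, 7.13 in pachytene and 9.17 in spermatids. The other probesets of Pgk1 changed in the same directions (log2 -5.20 and -3.99, then 3.69 and 2.67). Among the 201 X-linked probesets above background, the median change was -4.69 into pachytene and 3.15 into spermatids, against 0.02 and -0.43 over 12534 autosomal ones, and 77.6% of them were lower and then 87.6% higher, the directions taken by Pgk1.

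Ldhc, the testis lactate dehydrogenase, was near the top of the scale in every group, where the highest value on an array ranged from 16.50 to 17.08. The brightest of its 2 probesets was at 15.34 and 15.38 in B6 prepachytene, 15.51 and 15.61 in PWD prepachytene, 16.10 and 15.90 in B6 pachytene, 16.35 and 16.32 in PWD pachytene, 16.06 and 16.08 in B6 spermatids and 15.79 and 16.20 in PWD spermatids. It rose 1.63-fold into pachytene (log2 0.71, SE 0.09, adjusted p = 0.000255) and then changed by -0.14 into spermatids (95% interval -0.35 to 0.07, adjusted p = 0.388), a difference whose sign turned to 0.06 and 0.12 under the scalings named in the closing section.

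Ldha, the muscle form, rose into pachytene. Its probeset was at 11.01 and 10.99 in B6 prepachytene, 10.27 and 10.82 in PWD prepachytene, 14.45 and 13.88 in B6 pachytene, 14.26 and 14.33 in PWD pachytene, 14.20 and 14.15 in B6 spermatids and 13.62 and 13.98 in PWD spermatids. Prepachytene and later arrays did not overlap, with an 11-fold rise into pachytene (log2 3.46, SE 0.16, adjusted p = 5.26e-07). Pachytene and spermatid arrays overlapped, and their difference of -0.24 did not pass the test (95% interval -0.62 to 0.13, adjusted p = 0.389).

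Ldhb, the heart form, fell into pachytene. Its brightest probeset was at 9.58 and 8.34 in B6 prepachytene, 11.32 and 10.71 in PWD prepachytene, 7.57 and 7.27 in B6 pachytene, 7.36 and 7.29 in PWD pachytene, 7.26 and 7.26 in B6 spermatids and 9.17 and 8.42 in PWD spermatids. The fall was 6.11-fold (log2 -2.61, SE 0.30, adjusted p = 0.000112), and the log2 changes of the other 3 probesets were from -4.53 to -3.75, sizes that rest on the array's floor, since their pachytene means were below background in both strains for 2 probesets and in B6 for the third. Into spermatids those 3 rose by 1.37 to 1.48 over both strains and the brightest differed by 0.66 without passing the test (adjusted p = 0.162). Within strains, none of the 4 passed in B6 (-0.16 to 0.96) and all 4 passed in PWD (1.47 to 2.60), but the difference between the strains in this step passed for none. Sertoli cell markers moved alongside: 8 of 12 fell into pachytene (median -2.23), among them Clu (log2 -5.98) and Amhr2 (log2 -5.51), and 6 of 12 rose into spermatids (median 0.68). Of 9 spermatogonial markers, 6 also fell into pachytene (median -3.68), and so did all 14 prepachytene markers (median -4.27). The part of any of these cells in the Ldhb result was not tested.

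**Figure D2:**
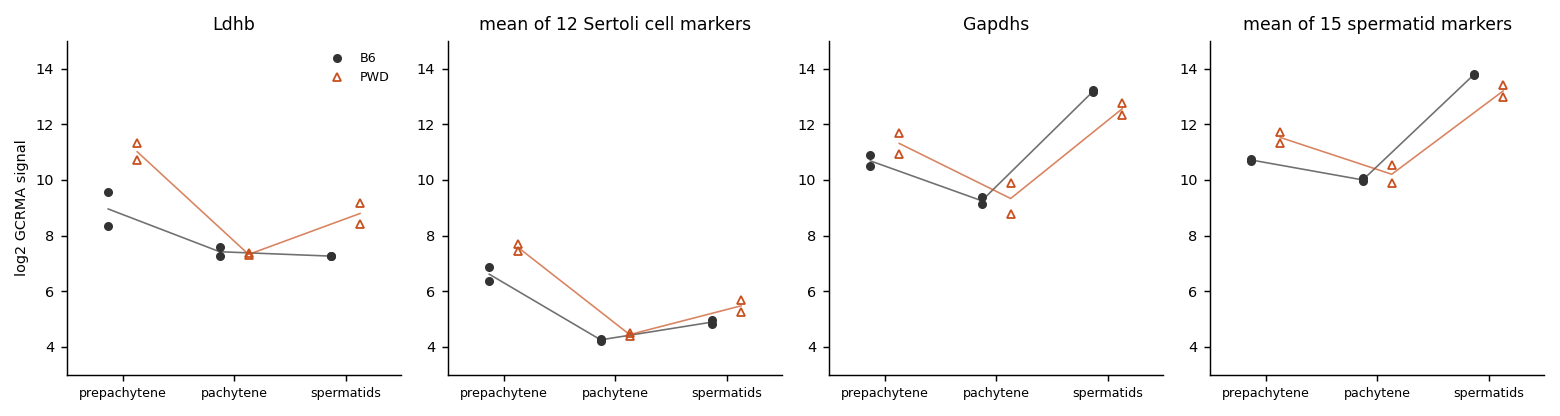
Log2 GCRMA signal on each array (filled circles B6, open triangles PWD) for Ldhb, the mean of 12 Sertoli cell markers, Gapdhs and the mean of 15 spermatid markers. Ldhb and the Sertoli mean were both highest in PWD prepachytene arrays and both higher in PWD than in B6 spermatids, and Gapdhs and the spermatid mean were both lowest in pachytene arrays.

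Pdha2, the germ cell E1 alpha subunit, rose into pachytene and stayed up. It was at 12.04 and 11.87 in B6 prepachytene, 10.99 and 10.65 in PWD prepachytene, 13.54 and 13.20 in B6 pachytene, 14.16 and 14.09 in PWD pachytene, 13.37 and 13.22 in B6 spermatids and 13.45 and 13.84 in PWD spermatids. Every prepachytene array was below every later one, a 5.14-fold rise (log2 2.36, SE 0.13, adjusted p = 1.22e-06), and the step into spermatids of -0.28 did not pass the test (95% interval -0.58 to 0.02, adjusted p = 0.174).

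Pdha1, its X-linked counterpart, was at or near background in every group. Its brightest probeset was at 4.87 and 5.36 in B6 prepachytene, 3.98 and 6.25 in PWD prepachytene, and between 2.71 and 2.90 on all pachytene and spermatid arrays. Both probesets passed the test for a fall into pachytene (log2 -2.37 and -2.94, adjusted p = 0.0016 and 4.4e-07), and only 1 array exceeded the background level in the brightest one, so the fall is known in direction and not in size. Neither probeset passed for a rise into spermatids (log2 0.06 and 0.08), both lying below background there.

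Gapdhs, the enzyme bound to the fibrous sheath of the sperm tail, followed a different course from the other germ cell forms, with its lowest values in pachytene. It was at 10.49 and 10.88 in B6 prepachytene, 10.95 and 11.67 in PWD prepachytene, 9.37 and 9.13 in B6 pachytene, 9.90 and 8.77 in PWD pachytene, 13.22 and 13.15 in B6 spermatids and 12.33 and 12.78 in PWD spermatids. The 3 populations did not overlap on any array. Gapdhs fell 3.26-fold into pachytene (log2 -1.71, SE 0.27, adjusted p = 0.000909) and rose 11.9-fold into spermatids (log2 3.58, SE 0.27, adjusted p = 2.44e-05). The 15 spermatid markers had a median of -1.17 into pachytene, where 10 fell and 3 rose (Acrv1, Spaca1 and Catsper2), and of 3.70 into spermatids, where all but Catsper2 rose. Prm2, a protamine of elongating spermatids, was at 11.64 and 13.36 in B6 and PWD prepachytene against 7.99 and 8.41 in pachytene. Their part in the prepachytene level of Gapdhs was not tested.

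Hk1, which starts glycolysis by phosphorylating glucose, rose at each step. Its brightest probeset was at 10.98 and 11.18 in B6 prepachytene, 10.42 and 11.28 in PWD prepachytene, 12.31 and 12.20 in B6 pachytene, 12.62 and 12.26 in PWD pachytene, 14.30 and 14.21 in B6 spermatids and 13.19 and 13.42 in PWD spermatids. The rises were 2.61-fold into pachytene (log2 1.38, SE 0.19, adjusted p = 0.000321) and 2.69-fold into spermatids (log2 1.43, SE 0.19, adjusted p = 0.000435). The other probeset rose by 3.86 and 2.16 on the log2 scale, from values of 5.31 to 6.74 on the prepachytene arrays.

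Slc2a3, a glucose transporter of high affinity, peaked in pachytene. Its brightest probeset was at 12.78 and 12.60 in B6 prepachytene, 13.45 and 13.37 in PWD prepachytene, 15.61 and 15.40 in B6 pachytene, 15.86 and 15.90 in PWD pachytene, 14.38 and 14.22 in B6 spermatids and 14.42 and 14.46 in PWD spermatids. It rose 6.25-fold (log2 2.64, SE 0.07, adjusted p = 3.24e-08) and then fell 2.5-fold (log2 -1.32, SE 0.07, adjusted p = 4.92e-06), with no overlap between populations. The 4 probesets shared these directions but not the size of the change. The brightest 2, whose suffixes mark probes that other transcripts can share, rose by 2.64 and 2.29, whereas the other 2 were below background on all 4 prepachytene arrays (2.22 to 3.41) and rose by 7.48 and 5.87.

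**Figure D3:**
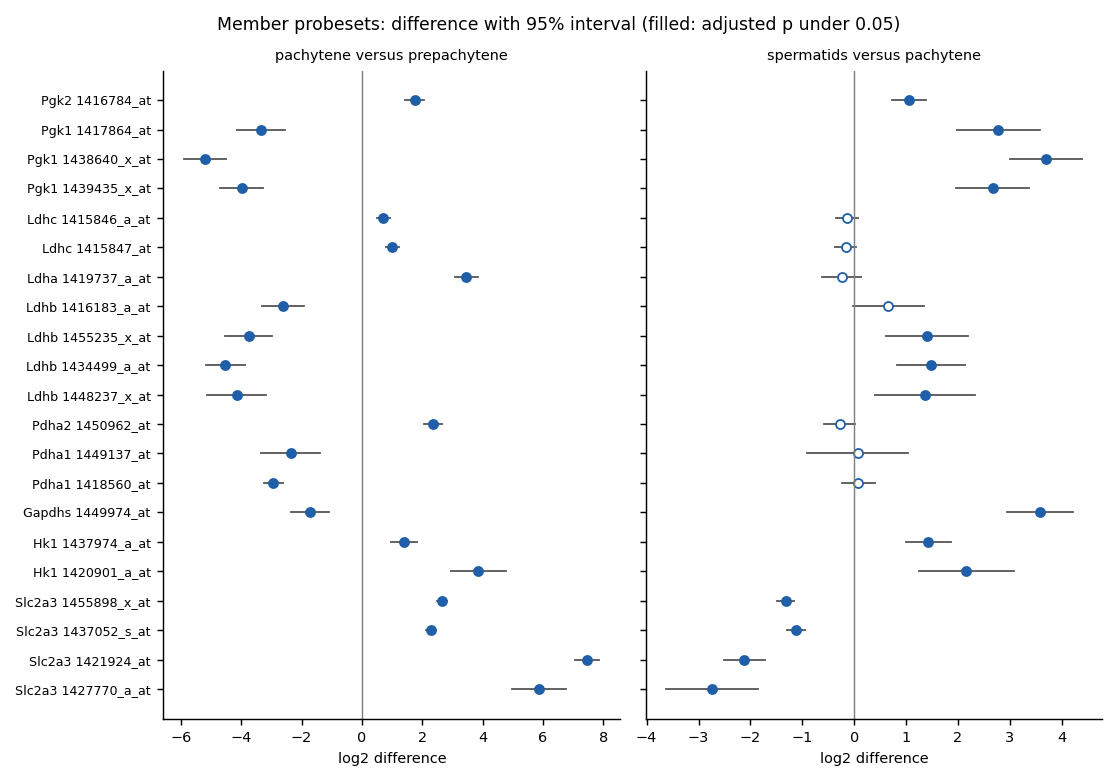
Log2 difference of all 21 member probesets between consecutive populations over both strains (points, with 95% intervals as lines, filled where the limma adjusted p was under 0.05). Into pachytene 11 probesets lay above 0 and 10 below it, and into spermatids those of Ldhc, Ldha, Pdha2 and Pdha1 stayed close to 0.

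Across the set, 11 of 21 probesets were higher in pachytene than in prepachytene arrays and 10 were lower, beside 44.3% and 24.6% of all probesets tested. Those lower were the probesets of Pgk1, Ldhb, Pdha1 and Gapdhs. From pachytene to spermatids 10 were higher and 4 lower (12.1% and 18.4% of all), the 4 being those of Slc2a3, and 7 did not pass. From prepachytene to spermatids 12 were higher and 8 lower (48.3% and 27.9% of all), and the brightest Pgk1 probeset was the 1 that did not pass (log2 -0.56, adjusted p = 0.167). The median over the 21 probesets was 0.71, 0.66 and 0.84 for these comparisons, against 0.07, 0.00 and 0.08 over all probesets. Over the 14002 probesets above background the median was -0.03, -0.41 and -0.41. Of those 14002, 82.1%, 69.5% and 88.3% passed the test in these comparisons, so that passing is not particular to these genes.

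How a germ form shifted against its somatic counterpart was taken as the log2 difference between their brightest probesets on each array, compared between 4 and 4 arrays with a two-sided exact permutation test. The exact test cannot go below 0.0286, and p-values were adjusted over the 12 comparisons, by which every pair without overlap had an adjusted p of 0.049. Levels of different probesets cannot be set against each other, so only the movement of the difference is given. Into pachytene the difference moved toward the germ form by 5.08 for Pgk2 against Pgk1 (SD 1.84 in pachytene, with Pgk1 below background in PWD), 3.32 for Ldhc against Ldhb and 4.73 for Pdha2 against Pdha1. It moved toward Slc2a3 by 8.65 against Slc2a1, the glucose transporter of most cells, which stood in as its counterpart (exact permutation p = 0.0286 and adjusted p = 0.049 for each shift). Against Ldha, Ldhc lost 2.75 (exact permutation p = 0.0286, adjusted p = 0.049), with Ldhc near the top of the scale in every group. Both Pdha1 probesets had means below background in every group, so the size of the Pdha2 shift is not measured. Gapdhs against Gapdh moved by -0.03 with overlapping arrays (exact permutation p = 0.971), both genes falling (log2 -1.71 and -1.68). Over the 3 control probesets of Gapdh this shift was from -0.74 to 0.05.

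Gapdh was read from a control probeset of the array, since no other probeset named it alone. Into spermatids, Gapdhs gained 3.26 on Gapdh and Slc2a3 moved by -1.75 against Slc2a1 (exact permutation p = 0.0286 and adjusted p = 0.049 for each). Pgk2 against Pgk1 moved by -1.72 with overlapping arrays, Pgk1 being below background in PWD pachytene (exact permutation p = 0.2, adjusted p = 0.3). Ldhc against Ldhb (-0.79), Ldhc against Ldha (0.11) and Pdha2 against Pdha1 (-0.34) also overlapped between pachytene and spermatids (exact permutation p = 0.229, 0.457 and 0.286). The brightest Slc2a1 probeset, above background on the 4 prepachytene arrays (8.57 to 10.66), was below it on every later array, so that its differences rest on the array's floor. The fall of Slc2a1 by 6.00 into pachytene went with the fall of the Sertoli cell, spermatogonial and prepachytene markers given above, whose part was not tested.

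**Figure D4:**
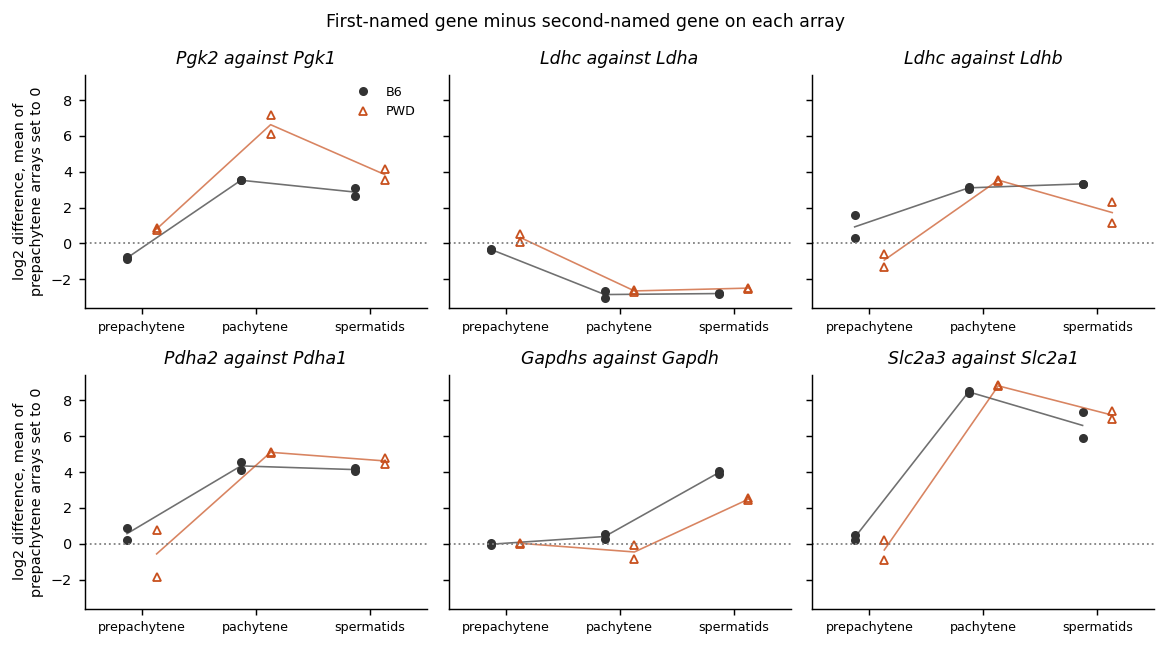
Log2 difference between the first-named and the second-named gene on each array, with the mean of the 4 prepachytene arrays set to 0 (filled circles B6, open triangles PWD, lines join group means). In 4 pairs the pachytene arrays lay above all prepachytene arrays, Ldhc against Ldha lay below them, and Gapdhs against Gapdh separated in spermatids.

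Some member probesets passed for a difference between PWD and B6, and which of them passed varied by population. In prepachytene arrays 6 of 21 probesets were higher in PWD and 1 lower, beside 11.9% and 6.72% of all probesets. In pachytene 3 were higher and 3 lower (8.64% and 4.19% of all), and in spermatids 4 were higher and 1 lower (6.36% and 5.52%). Of the probesets above background, 32.8%, 27.4% and 24% passed in the 3 populations in either direction, so that passing is not particular to these genes. The median difference over the members was 0.20, 0.34 and -0.02, against -0.01, 0.06 and -0.03 over all probesets and 0.26, 0.38 and 0.10 over those above background.

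Pgk1 had the largest strain differences of these genes in pachytene. All 3 of its probesets were lower in PWD there, with log2 differences of -2.63 (SE 0.49, adjusted p = 0.0108), -4.41 (SE 0.42, adjusted p = 0.000428) and -2.87 (SE 0.43, adjusted p = 0.00393). The PWD arrays of the second of these read 2.98 and 1.64 against 6.57 and 6.87 in B6, so that the PWD side was below background. The call of the brightest probeset was lost without B6 pachytene replicate 1 (adjusted p = 0.0597). In prepachytene the 3 differences were -0.83, -0.61 and -0.55 and none passed, and in spermatids they were -1.16, -1.61 and -1.21 with only the second passing (adjusted p = 0.0462, lost under 13 of 20 alternatives). Among the 201 X-linked probesets above background the median difference between the strains in pachytene was 0.19, with 2.99% lower in PWD. These probesets were above background by their mean over all arrays, and their median change into pachytene was -4.69. A probeset near the floor in pachytene in both strains could hardly be lower in PWD. This share therefore cannot tell whether the difference is particular to Pgk1. Sequence differences of PWD under the probes were not tested.

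Pdha2 differed between the strains in opposite directions at the first 2 stages. It was lower in PWD prepachytene by 1.14 (SE 0.18, adjusted p = 0.00369) and higher in PWD pachytene by 0.76 (SE 0.18, adjusted p = 0.0324), and in spermatids the difference of 0.35 did not pass. The rise into pachytene was thus larger in PWD by 1.89 (SE 0.26, adjusted p = 0.00312). The call in pachytene alone was lost under 10 of 20 alternative settings (adjusted p 0.00744 to 0.287) and was 0.31 under quantile normalization, those in prepachytene and of the difference in rise under none.

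Ldhb was higher in PWD prepachytene and spermatids, and no Ldhb probeset passed the F test for a strain difference that depends on population, given below. In prepachytene its 4 probesets were higher by 1.90 to 2.06, with 3 passing (brightest 2.06, SE 0.42, adjusted p = 0.0114, and 0.0545 without PWD prepachytene replicate 1). In pachytene none passed (-0.10 for the brightest). The dimmer probesets had higher means in PWD pachytene (6.24, 4.99 and 4.44 against 5.65, 4.34 and 4.01 in B6). All of these but the 6.24 were below background, where a difference could hardly show. In spermatids the 4 were higher by 1.48 to 2.89 with 2 passing (2.30 and 2.89, adjusted p = 0.00715 and 0.0155, the second lost under 4 of 20). The B6 spermatid means of those 2 probesets, 4.99 and 4.14, were below background, so that the sizes are not measured. The Sertoli cell markers had a median of 1.11 higher in PWD prepachytene (3 of 12 higher, Rhox5, Cldn11 and Vim, and 1 lower, Sox9) and 0.46 in PWD spermatids (3 higher, Rhox5, Cldn11 and Ctsl). Their mean level was 6.36 to 6.86 in B6 prepachytene against 7.46 to 7.68 in PWD, and 4.82 to 4.96 in B6 spermatids against 5.26 to 5.69 in PWD. The part of these cells in the Ldhb difference was not tested.

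Slc2a3 was higher in PWD wherever any of its probesets passed for a strain difference. Its bright pair of probesets was higher in prepachytene by 0.72 and 0.60 (adjusted p = 0.0019 and 0.0061), values that centring on probesets above background lowered to 0.47 and 0.35 with the calls kept, whereas the second call was lost with only the arrays compared (adjusted p = 0.0575). In pachytene the brightest differed by 0.38 (adjusted p = 0.0469), a call that 15 of 20 alternatives lost and quantile normalization turned to -0.0022, and 1 of the dimmer probesets by 0.94 (adjusted p = 0.043, lost under 12). The median over all probesets above background was also 0.38 there. Of 12 pachytene markers 4 were higher and 1 lower in PWD pachytene (median 0.61), and their part in the Slc2a3 and Pdha2 differences was not tested. In spermatids the dimmer pair was higher in PWD by 1.10 and 2.09 (adjusted p = 0.0224 and 0.0434, lost under 3 and 15 of 20). The second of these had a B6 mean of 5.15, below background, and was 1.19 without B6 spermatids replicate 2. Pgk2 was 1.73-fold higher in PWD prepachytene (log2 0.79, SE 0.20, adjusted p = 0.0295, lost under 6 of 20). Of the 15 spermatid markers 5 were also higher in PWD prepachytene and 0 lower (median 0.68), Tnp2 from a mean of 10.72 to 12.46, and their part in the Pgk2 difference was not tested. No probeset of Ldhc, Ldha, Pdha1, Gapdhs or Hk1 passed for a strain difference in any population, and of these the brightest Hk1 probeset in spermatids came nearest, lower in PWD by 0.95 (95% interval -1.55 to -0.34, adjusted p = 0.0582). In spermatids 4 of the 15 spermatid markers were also lower in PWD and 0 higher (median -0.59), and their part was not tested.

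**Figure D5:**
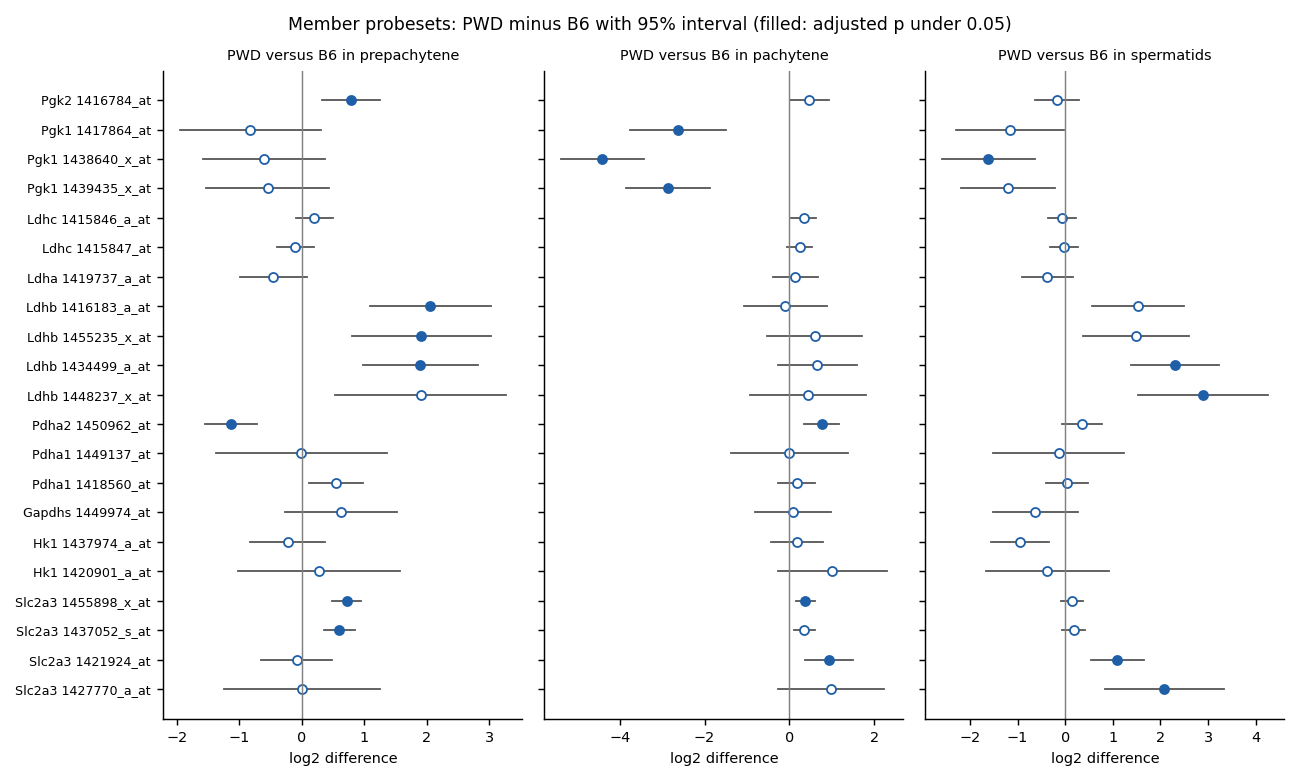
PWD minus B6 log2 difference of all 21 member probesets in each population (points, with 95% intervals as lines, filled where the limma adjusted p was under 0.05, each panel with its own scale). The 3 Pgk1 probesets lay furthest to the left in pachytene, and the 4 Ldhb probesets lay to the right of 0 in prepachytene and spermatids.

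An F test over both interaction terms asked if the strains differed unequally in the 3 populations. It passed for 2 of 21 member probesets, the Pgk1 probeset with the largest strain difference in pachytene (adjusted p = 0.0091) and Pdha2 (adjusted p = 0.00426). Beside them, 16.6% of all probesets and 23.4% of those above background passed, so that most members gave no sign of a strain difference that depends on population. The step into pachytene alone differed between the strains for 3 probesets (11.7% of all), Pdha2 and a pair of Pgk1 whose fall was larger in PWD by 3.80 (SE 0.60, adjusted p = 0.00601) and 2.32 (SE 0.60, adjusted p = 0.0459, lost under 13 of 19). The step into spermatids differed for 1 (3.77% of all), the same Pgk1 probeset, which rose by 2.80 more in PWD (SE 0.60, adjusted p = 0.0467, lost under 12 of 19).

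The order of the 6 groups is given by whether the 2 arrays of neighbouring groups overlapped, which is a description and not a test. Pgk2 was highest in B6 and PWD spermatids, which overlapped, followed without overlap by PWD pachytene, B6 pachytene, PWD prepachytene and B6 prepachytene, although the strain difference in pachytene did not pass (log2 0.47, adjusted p = 0.162). Slc2a3 had no overlap between neighbours, from PWD pachytene through B6 pachytene, PWD spermatids, B6 spermatids and PWD prepachytene down to B6 prepachytene, although the strains differed in spermatids by 0.14 without passing the test (adjusted p = 0.423). Ldhc and Ldha shared their upper order, with PWD pachytene highest and B6 spermatids, B6 pachytene and PWD spermatids overlapping in turn. Ldhb was highest in PWD prepachytene, and its B6 prepachytene and PWD spermatid arrays overlapped.

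The genes whose brightest probeset followed a member most closely over the 12 arrays were taken by Pearson's r, as a description, since all arrays share the same 3 populations. Pgk2 was closest to Dnajb13 (r = 0.995), Cep57 (r = 0.994) and 1700030J22Rik (r = 0.994). Gapdhs was closest to Dnajb8 (r = 0.996) and to the spermatid marker Gsg1 (r = 0.993), and Slc2a3 to Zmynd10 (r = 0.997). Ldhb had weaker neighbours, Ptprf (r = 0.956), Reep1 (r = 0.956) and Cst9 (r = 0.952), and Pgk1 the weakest, led by Nfe2l2 (r = 0.947). Ldha was closest to Exosc5 (r = 0.997), Pdha2 to Cep72 (r = 0.994), Hk1 to Ufd1 (r = 0.987), Ldhc to Phf7 (r = 0.982) and Pdha1 to Mef2d (r = 0.974).

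Other genes of the pathway were counted beside the shares of all probesets, 44.3% higher and 24.6% lower into pachytene and 12.1% and 18.4% into spermatids. Genes at the floor are counted too. Of 34 organ-specific genes not used in the testis, 18 were called higher and 3 lower into pachytene (median 0.10). Of 22 further glycolytic enzymes and regulators measured among 28 listed, 14 had a mean above background. Of these 22, 12 were higher and 6 lower in pachytene than in prepachytene (median 0.50), and 8 were higher and 5 lower in spermatids than in pachytene. The largest changes into pachytene among those above background were rises of Pfkp by 5.23, Eno4 (an enolase of the sperm tail) by 3.95 and Pfkm by 3.07, so that platelet and muscle forms of phosphofructokinase rose together. Into spermatids they were rises of Pkm (pyruvate kinase) by 3.62 and of the aldolase retrogenes Aldoart2 by 3.39 and Aldoart1 by 3.24. Pkm had means of 9.90 and 10.03 in B6 and PWD prepachytene, 6.70 and 7.44 in pachytene and 10.94 and 10.46 in spermatids, a dip like that of Gapdhs.

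Among transporters, Slc16a1, the monocarboxylate transporter of most cells, fell by 6.96 (SE 0.23, adjusted p = 8e-08), from means of 11.22 and 10.91 in B6 and PWD to below background. Slc16a7, the monocarboxylate transporter with higher affinity for pyruvate and lactate, rose into spermatids by 1.99 (SE 0.28, adjusted p = 0.000654), to 15.29 in B6 and 15.12 in PWD. In this list of 9 measured genes, 5 of them with a mean above background, 3 were higher and 4 lower in pachytene. The lactate dehydrogenase relative Ldhal6b rose by 3.38, and Mpc1, a subunit of the mitochondrial pyruvate carrier, fell by 3.14 and then by 0.71. Of 10 other glucose and hexose transporters 5 were higher and 1 lower, but only 2 of the 10 had a mean above background. These were the fructose transporter Slc2a5, up by 4.59, and Slc2a8, up by 3.51. Into spermatids 0 of the 10 were higher and 2 lower, Slc2a8 by 1.03 among them.

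In the pyruvate dehydrogenase complex and its regulators 5 of 11 genes were higher and 4 lower in pachytene, beside the same 44.3% and 24.6% of all probesets, and 3 were higher and 1 lower in spermatids. Of these 11 genes, 7 had a mean above background. Pdpr, a regulator of the pyruvate dehydrogenase phosphatase, fell by 5.19, Pdhx, the E3-binding subunit, rose by 2.63, and Pdhb, the partner subunit of the E1 alpha proteins, fell by 0.47 into spermatids over both strains (adjusted p = 0.0317), with means of 13.05 and 13.08 in B6 and of 13.55 and 12.57 in PWD. The X-linked kinase Pdk3 fell by 3.38 into pachytene and rose by 3.52 into spermatids (SE 0.33 for both), the directions of Pgk1. The phosphatase Pdp1 rose by 3.49 into spermatids.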

How the data were processed

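The authors deposited a table of log2 expression values of 12 Affymetrix arrays, given as GCRMA values in the submitters' processing notes (the methods name RMA for another array type). GCRMA corrects the background by probe sequence and normalizes quantiles over arrays, so that populations with unequal RNA content can shift many values. The GCRMA version is not given in the sources used here. Array number, 2 a group, limits the precision.

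All 45037 probesets other than 64 controls entered a fit of the deposited log2 values with limma 3.58.1 in R 4.3.3 (a mean for each of 6 groups, a variance prior following the mean, Benjamini-Hochberg adjustment within a comparison, threshold 0.05), after a test on simulated data. Plots were drawn with matplotlib 3.10.9 and tables made with numpy 2.4.6 and pandas 2.3.3 under Python 3.11.15. Probesets were named by the platform annotation and RefSeq (204 of 34945 single-gene probesets had no match). The probeset with the highest mean stood for a gene. Named genes were all members, their counterparts, the 3 largest called changes above background in each pathway list, and the 3 genes with the highest r to a member. The members and lists were chosen with earlier results of these data known. The alternatives were other normalizations, priors, filters, thresholds, probesets and permutations, and each array left out; a background at the 90th percentile was added after seeing the data.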

Additional observations from a re-analysis of the deposited data

Results flagged for a closer look

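The step into pachytene differed between the strains for 3 member probesets by a test of the difference itself. The fall of Pgk1 was larger in PWD for both of its dimmer probesets (log2 -3.80 and -2.32, the second lost under 13 of 19 alternatives), with the PWD pachytene arrays below background. The suffixes of both mark probes that other transcripts can share, and the brightest Pgk1 probeset did not pass this test. The rise of Pdha2 was larger in PWD by 1.89. The rise of the first of these Pgk1 probesets into spermatids was larger in PWD by 2.80, a call lost under 12 of 19 alternatives.

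In a pair of comparisons the arrays of the strains moved in opposite directions without overlap. With 2 arrays a group, such a separation can easily arise by chance, so that it is a description and not a test. The difference between the strains in these comparisons was not tested. Ldhc against Ldhb moved into spermatids by 0.22 in B6 and -1.81 in PWD. Gapdhs against Gapdh moved into pachytene by 0.43 in B6 and -0.48 in PWD.

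Groups of 2 arrays are too small for a test of single outlying arrays.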

How the results depend on the processing

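The 3 counts of members called between populations stayed within 1.5 times their value under all 21 alternatives each (19 to 21 of 21, 12 to 16, and 18 to 20), and of 597 refits of single brightest probesets 591 kept direction and side of the threshold. The step into spermatids changed sign for Ldhc under quantile normalization (0.0602) and centring on probesets above background (0.12), and for Ldha under centring (0.0102). The cause was not tested.

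Strain counts were less stable. In prepachytene the 7 calls became 2 with only the arrays compared and 3 at a threshold of 0.01 (4 to 8 with an array left out). In pachytene the 6 became 3 under quantile normalization, 3 under centring, 1 with only the arrays compared and 2 at 0.01 (3 to 6 with an array left out). In spermatids the 5 became 3 without a trend in the prior, 9 among probesets above background, 3 with only the arrays compared and 1 at 0.01 (1 to 4 with an array left out). The 2 interaction calls became 4 under centring, 6 among probesets above background and 5 with the replicate block (2 to 5 with an array left out). Same-numbered arrays of a strain had deviations correlated at -0.288 to 0.089. With 2 arrays a group, this cannot tell whether same-numbered arrays came from the same animal. The replicate block was therefore an alternative only. Of 436 refits of called strain differences 320 kept the call, 115 lost it and 1 reversed, Slc2a3 in pachytene under quantile normalization (-0.0022).

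The 7 pair shifts that passed (5.08, -2.75, 3.32, 4.73, 3.26, 8.65 and -1.75) could not pass when labels were permuted within strain (adjusted p 0.0833) or in the replicate block (adjusted p 0.167), whose smallest p is too large, and the values were the same. Leaving out a pachytene array raised their adjusted p to 0.0571 to 0.098 and a spermatid array to 0.0857, with fewer relabelings left. With an array left out they were 4.39 to 5.60 for Pgk2 against Pgk1, -2.87 to -2.57 for Ldhc against Ldha, 2.89 to 3.84 for Ldhc against Ldhb, 4.10 to 5.02 for Pdha2 against Pdha1 and 8.34 to 8.81 for Slc2a3 against Slc2a1 into pachytene, and 2.98 to 3.52 for Gapdhs against Gapdh and -1.92 to -1.42 for Slc2a3 against Slc2a1 into spermatids. By choice of probeset the shifts into pachytene were 5.08 to 6.94 for Pgk2 against Pgk1, 3.32 to 5.54 for Ldhc against Ldhb, 4.73 to 5.30 for Pdha2 against Pdha1 and 4.60 to 13.48 for Slc2a3 against Slc2a1, and -3.17 to -1.11 for the last into spermatids. There Ldhc against Ldhb passed with the mean of probesets above background (-1.38, adjusted p 0.0457) and with the probeset of largest range (-1.64, adjusted p 0.0429). Into pachytene Gapdhs against Gapdh reversed under quantile normalization (0.0186) and ranged from -0.23 to 0.25 with an array left out. By choice among the 3 Gapdh control probesets this pair moved by -0.74 to 0.05 into pachytene and by 3.16 to 3.26 into spermatids. The mean of probesets above background was not run for Pdha1 and Slc2a1, which have none. With a background at the 90th percentile (5.14), chosen after seeing the data, 19 members were still above it.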
